A study of Mus musculus with 27 samples.

Results

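The 9 genes described here, *Gpnmb*, *Spp1*, *Trem2*, *Mmp12*, *Cd9*, *Cd63*, *Itgax*, *Fabp5* and *Lgals3*, are transcripts used to mark scar-associated macrophages of the injured liver. They were chosen by name, not by their values, and are 9 of the 17655 genes in the deposited tables. All 9 passed the filter on low counts in every comparison, which a gene can do through 1 of the groups alone. RNA sequencing was made from whole liver of 27 mice, each library being 1 mouse, with 3 mice in each of 9 groups. Every mouse, controls included, was homozygous for the floxed *Kdm5b* allele (*Kdm5b* fl/fl, B6/J in the paper's methods). WT mice received an AAV control vector, KO mice received AAV-CMV-Cre, whose promoter is active in many cell types, and HepKO mice received AAV-TBG-Cre, whose promoter is directed to hepatocytes. The WDA groups (Western diet plus alcohol given in drinking water, 8 weeks in the labels) were WT, KO and HepKO females and WT and KO males. The resolution (Res) groups were WT and KO females and males given WDA for 16 weeks and then 4 weeks without alcohol, with the vector given at alcohol cessation. In the paper the Western diet ended together with the alcohol, mice then having chow and plain water, and WDA mice had the vector from the start of feeding. The paper's methods give a longer feeding period for WDA than the 8 weeks of the labels, ages at death are not in the labels, and the stage coincides with the experiment number in the titles, so that the stage, the end of alcohol, the change of diet, the length of feeding, the time of the vector and the experiment cannot be told apart.

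Scar-associated macrophages are monocyte-derived cells that gather along fibrous septa of the injured liver, where they contact collagen-producing stellate cells. They resemble lipid-associated macrophages of fat tissue, and sensing of lipid through TREM2 and its adaptor is a feature of both. Most of the 9 transcripts are not restricted to these cells. *Spp1* and *Cd9* are also made by cholangiocytes, *Cd63* by nearly every cell that has lysosomes, and *Fabp5* and *Lgals3* by several epithelial and myeloid cells. In RNA from whole liver, fewer cells of a type and less RNA per cell cannot be told apart.

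The members fall into 4 roles. The surface receptors are *Trem2* (chromosome 17, 48346401 to 48352276, build GRCm38.p6), which binds lipids and lipoproteins, *Gpnmb* (chromosome 6, 49036518 to 49058182), a transmembrane glycoprotein of late endosomes and lysosomes, and *Itgax* (chromosome 7, 128129526 to 128150657), which encodes the integrin chain CD11c. The tetraspanins are *Cd9* (chromosome 6, 125460266 to 125494760) and *Cd63* (chromosome 10, 128896231 to 128912822), which organise membrane proteins at the cell surface and in late endosomes. The secreted proteins are osteopontin (*Spp1*, chromosome 5, 104435111 to 104441053), a ligand of integrins and CD44, macrophage elastase (*Mmp12*, chromosome 9, 7344397 to 7360461) and galectin-3 (*Lgals3*, chromosome 14, 47373860 to 47386167), which binds sugars on glycoproteins. *Fabp5* (chromosome 3, 10012585 to 10016610) encodes a carrier of fatty acids in the cytoplasm.

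RefSeq promoter sequences (250 bases before to 50 bases after a start site, GRCm38.p6) were matched for 8 of the 9 genes, with 10 start sites between them; the exception was *Fabp5*. Short motifs were searched on both strands, and matches are in capitals. The AP-1 motif TGANTCA was found in 4 of the 10 member promoters and in 7.81% of all 32851 promoters. The PU.1 core GAGGAA was found in 4 of the 10 and in 28.3% of all, the nuclear receptor half-site AGGTCA in 2 of the 10 and in 16.3% of all, and the E-box CACGTG in 0 of the 10 and in 7.15% of all. The 4 promoters with the AP-1 match are shown, with the first promoter of *Spp1*, which has none, beside them. The promoter of *Cd63*, with 2 PU.1 matches, is not shown. All 5 lie on the plus strand: *Gpnmb* at chr6:49036268-49036567, *Itgax* at chr7:128129300-128129599, the second *Mmp12* start site at chr9:7347124-7347423, *Trem2* at chr17:48346151-48346450 and *Spp1* at chr5:104434861-104435160. Counted from the start site as 0, the first base of the AP-1 match lies at 8 in *Gpnmb*, -56 in *Itgax*, -44 in *Mmp12* and -9 in *Trem2*.
Gpnmb: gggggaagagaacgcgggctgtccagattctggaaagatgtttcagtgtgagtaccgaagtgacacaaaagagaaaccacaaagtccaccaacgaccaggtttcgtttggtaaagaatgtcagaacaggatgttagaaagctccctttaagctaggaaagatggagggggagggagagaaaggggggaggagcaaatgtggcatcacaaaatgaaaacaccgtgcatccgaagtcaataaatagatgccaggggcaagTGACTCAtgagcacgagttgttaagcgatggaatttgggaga
Itgax: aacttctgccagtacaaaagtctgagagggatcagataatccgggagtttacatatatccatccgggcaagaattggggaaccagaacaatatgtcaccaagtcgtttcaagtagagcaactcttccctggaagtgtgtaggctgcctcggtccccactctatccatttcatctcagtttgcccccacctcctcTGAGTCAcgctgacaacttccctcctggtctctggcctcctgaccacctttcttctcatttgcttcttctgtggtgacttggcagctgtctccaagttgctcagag
Mmp12: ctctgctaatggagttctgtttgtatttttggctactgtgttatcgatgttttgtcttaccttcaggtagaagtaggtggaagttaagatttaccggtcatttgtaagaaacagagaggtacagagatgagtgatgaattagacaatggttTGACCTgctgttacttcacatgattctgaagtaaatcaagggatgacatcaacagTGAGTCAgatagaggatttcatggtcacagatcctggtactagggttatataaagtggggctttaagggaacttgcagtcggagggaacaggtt
Trem2: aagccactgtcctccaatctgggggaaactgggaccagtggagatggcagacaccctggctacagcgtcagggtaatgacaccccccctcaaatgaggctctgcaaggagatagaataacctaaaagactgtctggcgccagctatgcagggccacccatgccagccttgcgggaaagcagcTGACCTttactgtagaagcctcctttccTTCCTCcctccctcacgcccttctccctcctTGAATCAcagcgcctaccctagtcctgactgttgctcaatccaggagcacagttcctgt
Spp1: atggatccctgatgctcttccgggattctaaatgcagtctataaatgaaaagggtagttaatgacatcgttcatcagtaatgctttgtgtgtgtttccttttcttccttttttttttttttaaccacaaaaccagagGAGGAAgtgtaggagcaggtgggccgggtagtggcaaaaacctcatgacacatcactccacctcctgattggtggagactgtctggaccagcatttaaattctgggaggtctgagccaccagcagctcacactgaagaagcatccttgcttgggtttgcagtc
A match is a description of the letters in these windows, and binding of a factor was not measured.

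Summed counts per library ranged from 14634602 to 19388251 (median 17944536). The targeted gene, *Kdm5b*, had a lower mean in each Cre group than in its WT group, at 18.1 ± 5.20 CPM (counts scaled to the library total; SD, n = 3) in KO and 13.3 ± 4.63 in HepKO against 25.96 ± 4.94 in WT WDA females. The means were 21.5 ± 0.789 against 24.3 ± 0.709 in WDA males, 12.0 ± 1.26 against 17.1 ± 0.442 in Res females and 12.6 ± 4.62 against 19.3 ± 0.451 in Res males. The library labelled KO WDA female mouse 1, at 24.1 CPM, was inside its WT range of 21.5 to 31.2 CPM and so showed no lower level, while in the other 4 comparisons the Cre and WT livers did not overlap. Comparisons of 2 groups of females that include it are also given without it. Whole liver holds cells that a vector may not reach, and reads over the deleted stretch were not counted separately here. Libraries were compared on CPM scaled with TMM factors (trimmed mean of M-values). In the KO Res male mouse 5, transcripts biased to female liver summed to 849.5 CPM, against 219.3 CPM or less in every other male, while its Y-linked transcripts were present, at 87.6 CPM.

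A few livers were above the others for the 9 genes, by unlike margins. The 3 highest were WT WDA female mouse 7, KO WDA male mouse 17 and WT Res female mouse 13, from 3 different groups, of both vectors, both sexes and both stages. The summed level of the 9 genes was 1206 CPM in mouse 7, 1035 CPM in mouse 17 and 402.4 CPM in mouse 13, against 56.5 to 315.7 CPM in the other 24 livers. In mouse 7 the median member was at 13.4 times its own median over the 27 livers, in mouse 17 at 10.9 times and in mouse 13 at 4.37 times. All 9 genes were above 2 times their median in mice 7 and 17, and 7 of 9 in mouse 13. Mouse 13 was near some Res males, at 57.0 CPM of *Gpnmb* against 53.2 CPM in WT Res male mouse 7. It ranked 5 of 27 for *Mmp12* and 6 of 27 for *Lgals3*. Next came WT Res male mouse 9 and KO Res male mouse 5 with 6 of 9 each, and then KO WDA male mouse 18 and WT Res male mouse 7 with 5 of 9 each. Mouse 7 was the highest liver for 8 of the 9 genes, the exception being *Spp1*, which was highest in mouse 17. Mouse numbers repeat between the experiments, and mice 7, 17 and 13 mean these 3 livers wherever no group is given. Each comparison that holds one of them is given with and without it. They were picked by their levels of these same genes, so p-values from fits without them are descriptions and add no independent support.

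**Figure D1:**
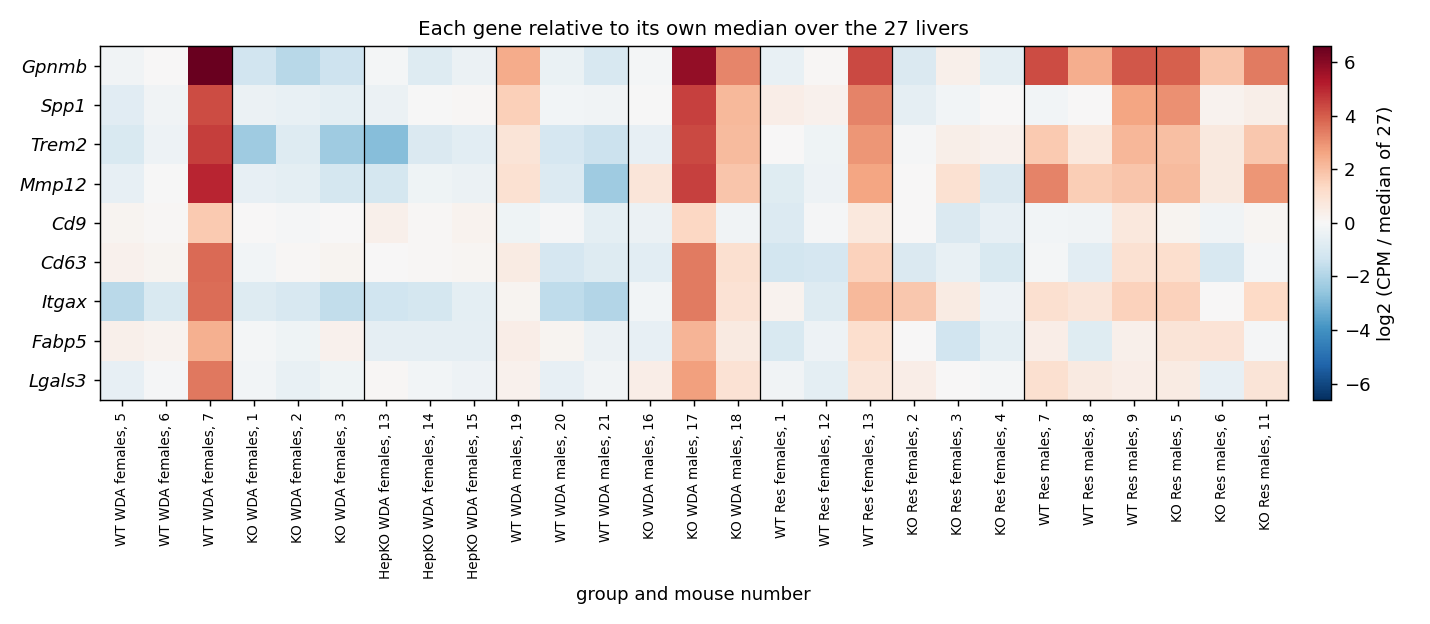
Level of each of the 9 genes in each of 27 livers, as log2 of the CPM over the gene's median across livers, with one column per mouse in order of group. WT WDA female mouse 7 and KO WDA male mouse 17 are above 2 times the median for all 9 genes, and WT Res female mouse 13 for 7 of 9.

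The 3 livers with high members also had high levels of scar and ductular genes, and mice 7 and 17 of macrophage and dendritic cell genes. The 15 stellate cell and scar matrix genes summed to 867.7 CPM in mouse 7, 950.3 CPM in mouse 17 and 416.6 CPM in mouse 13, against 109.3 to 344.2 CPM in the other 24 livers. The 12 cholangiocyte and ductular genes summed to 202.9, 210.6 and 133.2 CPM, against 55.6 to 130.6 CPM. Of their defining markers, *Col1a1*, a chain of type I collagen, was at 70.0 CPM in mouse 7, 78.4 CPM in mouse 17 and 22.8 CPM in mouse 13, and *Krt19*, a keratin of bile duct cells, at 6.44, 7.08 and 4.66 CPM. The 15 pan-macrophage and recruited monocyte genes summed to 754.0, 599.4 and 415.1 CPM, against 172.8 to 526.9 CPM in the others, so mouse 13 was inside that range. The 10 dendritic cell genes, of which *Itgax* is not one although it also marks those cells in the mouse, summed to 893.0, 850.4 and 511.6 CPM, against 101.3 to 546.2 CPM. The neutrophil genes summed to 17.6, 19.1 and 16.2 CPM, against 3.57 to 30.5 CPM, and the lymphocyte genes to 9.46, 12.3 and 38.6 CPM, against 5.42 to 32.9 CPM. The 10 genes of resident Kupffer cells summed to 442.4, 377.5 and 284.3 CPM, against 370.4 to 869.3 CPM, so mouse 13 was the lowest of all and mouse 17 near the low end. Their defining marker *Clec4f* was at 31.3 CPM in mouse 7, 24.6 CPM in mouse 17 and 26.6 CPM in mouse 13, and *Timd4*, which embryo-derived Kupffer cells carry, at 1.16, 0.720 and 2.43 CPM. The part of these cell types in the members' levels was not tested.

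**Figure D2:**
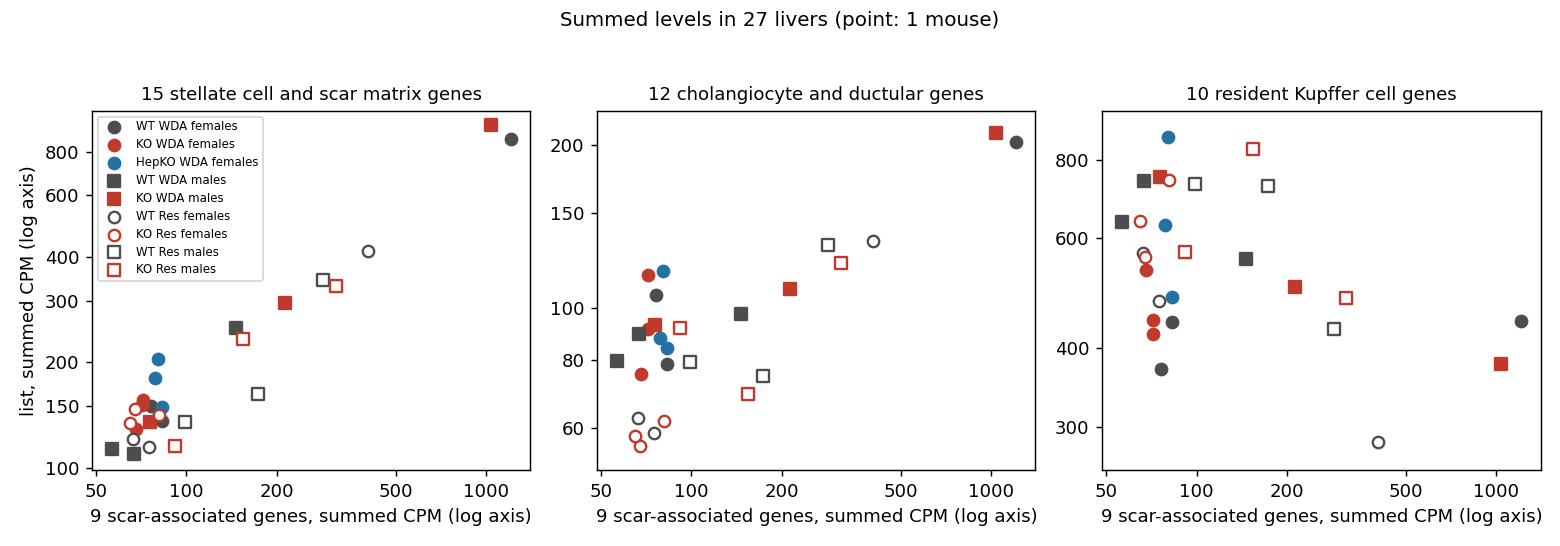
Summed CPM of the 9 scar-associated macrophage genes (x axis, log scale) against the summed CPM of 15 stellate cell and scar matrix genes, 12 cholangiocyte and ductular genes and 10 resident Kupffer cell genes (y axes, log scale), 1 point per mouse. The points of mice 7, 17 and 13 lie at the right end, high for scar and ductular genes and low to middle for Kupffer cell genes.

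Compared per transcript length, in the deposited FPKM values (fragments scaled by transcript length and library total), the 9 genes spanned a wide range of levels. The median over 27 livers was 27.3 FPKM for *Cd9*, 17.1 for *Spp1* and 16.1 for *Cd63*. *Fabp5* and *Lgals3* followed with 9.0 and 7.92 FPKM, and *Mmp12*, *Trem2*, *Gpnmb* and *Itgax* were low, with 1.93, 1.38, 1.37 and 0.710 FPKM. The order of spread between livers was different. The highest liver was at 92.6 times the median CPM for *Gpnmb*, 32.5 times for *Mmp12*, 23.3 times for *Trem2* and 22.8 times for *Spp1*, but at 3.29 times for *Cd9* and 5.02 times for *Fabp5*. The 3 highest livers of each gene held 63.3% of the CPM summed over 27 livers for *Gpnmb*, 59.4% for both *Trem2* and *Mmp12* and 56.6% for *Spp1*, against 24.7% for *Cd9*. The precision of the low genes is limited by their counts, which ran from 3 to 619 reads for *Trem2*, from 12 to 850 for *Itgax* and from 14 to 5688 for *Gpnmb*.

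*Gpnmb* had the widest range. In WT WDA females it was at 2.32, 2.73 and 252.7 CPM, in KO WDA females at 1.16, 0.768 and 1.05 CPM and in HepKO WDA females at 2.53, 1.52 and 2.12 CPM. In WT WDA males it was at 15.1, 1.997 and 1.32 CPM, and in KO WDA males at 2.53, 154.0 and 25.6 CPM. One liver of each of the groups WT WDA females, WT WDA males and KO WDA males was thus far from its mates. In WT Res females *Gpnmb* was at 1.92, 2.92 and 57.0 CPM and in KO Res females at 1.41, 3.42 and 1.74 CPM, whereas WT Res males were at 53.2, 14.2 and 47.3 CPM and KO Res males at 41.9, 9.87 and 29.7 CPM. All 6 Res males were above 5 of the 6 Res females. By their medians the groups ran from WT Res males, KO Res males and KO WDA males through WT Res females, WT WDA females, HepKO WDA females, WT WDA males and KO Res females to KO WDA females. In that order only the last neighbours, KO Res and KO WDA females, did not overlap.

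*Spp1* was less variable outside the high livers. It was at 12.3, 17.7 and 420.3 CPM in WT WDA females, at 16.0, 14.98 and 13.5 CPM in KO WDA females and at 16.2, 20.8 and 21.8 CPM in HepKO WDA females. In WT and KO WDA males it was at 62.4, 18.3 and 17.9 CPM and at 20.4, 479.5 and 93.9 CPM. WT and KO Res females were at 28.1, 25.9 and 201.0 CPM and at 13.9, 18.7 and 21.02 CPM, and WT and KO Res males at 18.5, 21.2 and 128.8 CPM and at 169.0, 25.1 and 27.6 CPM. Each group overlapped the next one in the order of medians, and the Res males did not stand together for this gene as they did for *Gpnmb*.

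**Figure D3:**
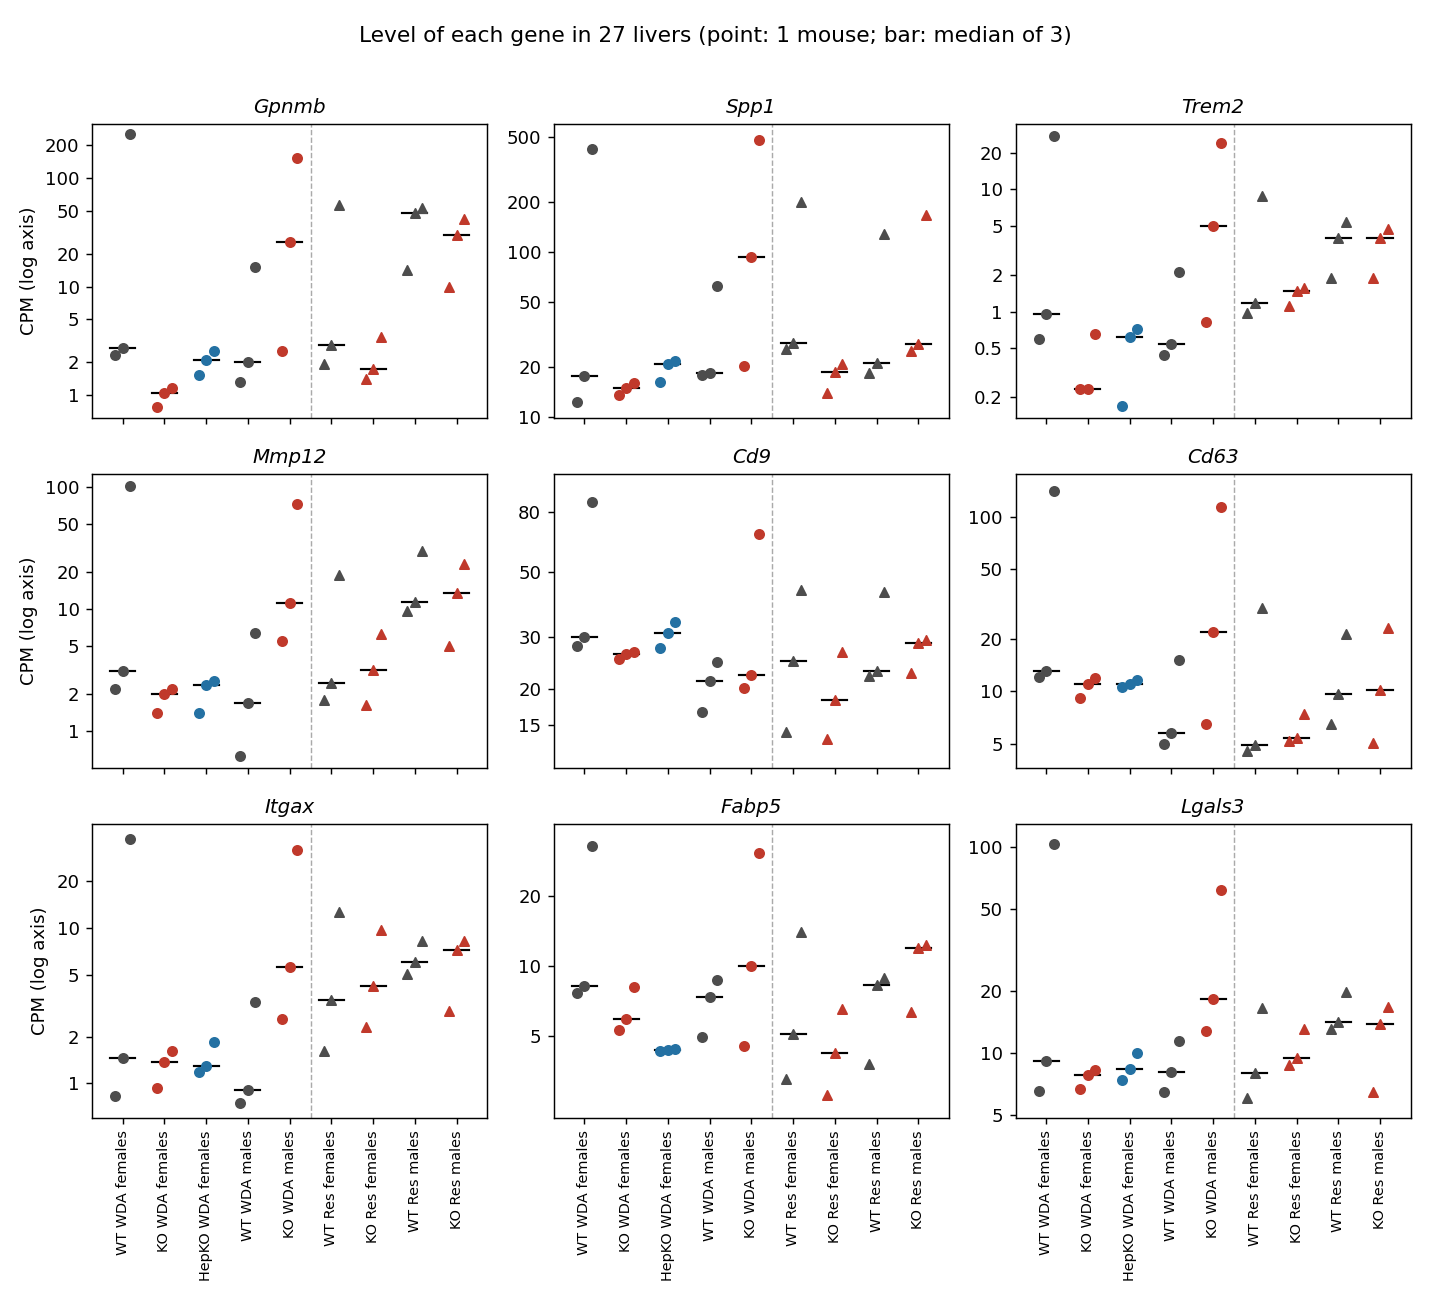
CPM (log axis, TMM-scaled) of each of the 9 genes in 9 groups of 3 mice, with 1 point per mouse and a bar at the median of each group. *Gpnmb* spans 0.768 to 252.7 CPM, while *Cd9* spans 13.5 to 86.2 CPM.

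*Gpnmb* and *Spp1* parted in 2 Res males. Per length, *Gpnmb* was at 1.45 times *Spp1* in WT Res male mouse 7 and at 0.570 times *Spp1* in KO Res male mouse 11, a ratio of FPKM levels that was 0.362 or less in the other 25 livers. WT Res male mouse 7 held 53.2 CPM of *Gpnmb* and 30.2 CPM of *Mmp12* beside 18.5 CPM of *Spp1*. *Krt19* was at 0.189 CPM, *Epcam* at 1.13 CPM and *Mmp7* at 0.441 CPM in it. All 12 ductular genes summed to 74.8 CPM in it, the lowest of the WT Res males, whose median was 79.3 CPM. That sum was above 5 of the 6 Res females, at 55.6 to 62.5 CPM. KO Res male mouse 11 was alike, with *Gpnmb* at 29.7 CPM, *Mmp12* at 23.6 CPM and *Spp1* at 27.6 CPM. In it *Krt19* was at 0.456 CPM and *Mmp7* at 1.94 CPM. Its 12 ductular genes summed to 69.2 CPM, the lowest of the KO Res males, whose median was 91.7 CPM. *Ccr2*, the chemokine receptor of recruited monocytes, was at 6.30 CPM in WT Res male mouse 7 and 5.53 CPM in KO Res male mouse 11. By contrast, the 3 livers with the highest members had *Krt19* at 4.66 to 7.08 CPM, and their *Spp1* was above their *Gpnmb* per length.

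**Figure D4:**
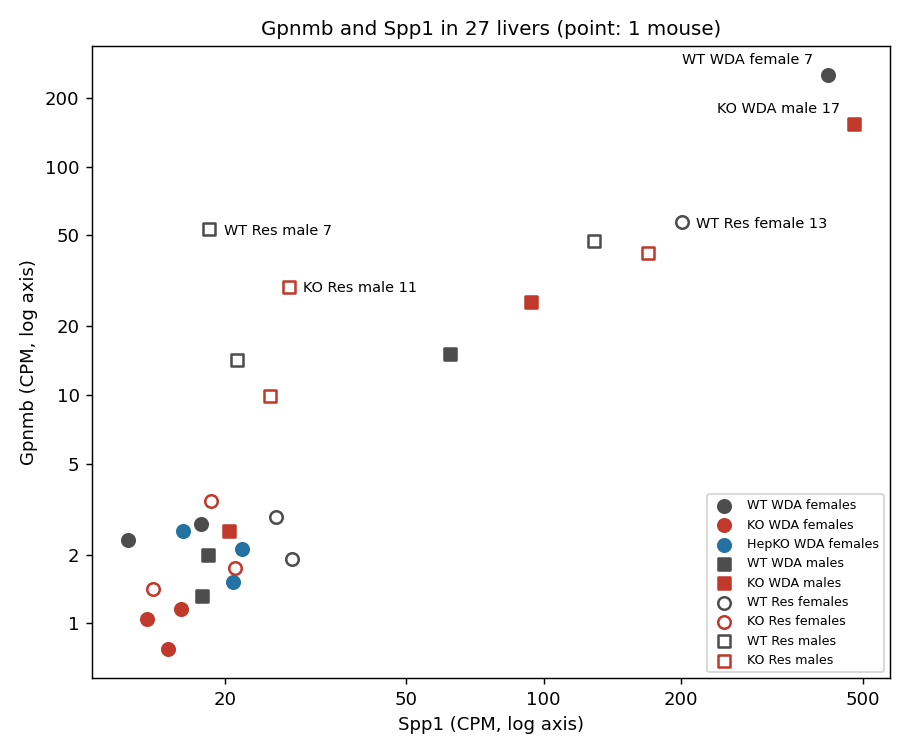
*Gpnmb* against *Spp1* in 27 livers (CPM, log axes), 1 point per mouse. WT Res male mouse 7 and KO Res male mouse 11 have the most *Gpnmb* for their level of *Spp1*, with *Gpnmb* at 53.2 and 29.7 CPM beside *Spp1* at 18.5 and 27.6 CPM.

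Across the 27 livers, which share groups and pipelines, *Trem2* ran in like order with *Itgax* and *Mmp12*, and *Gpnmb* with *Mmp12* and *Trem2*. Spearman's rho of the CPM was 0.90 for *Trem2* and *Itgax*, 0.88 for *Trem2* and *Mmp12*, 0.88 for *Gpnmb* and *Mmp12* and 0.86 for *Gpnmb* and *Trem2*. Without mice 7, 17 and 13 the same 4 values were 0.86, 0.84, 0.83 and 0.80 over 24 livers. The receptor pair *Gpnmb* and *Itgax* had a rho of 0.74, or 0.63 without the 3 livers, which is near that of *Gpnmb* and *Spp1*, 0.77 or 0.67, and *Gpnmb* and *Cd9* had one of 0.37, or 0.10 without them. With the ductular markers *Epcam*, *Krt19* and *Sox9* the rho of *Spp1* was 0.81, 0.70 and 0.75, and that of *Gpnmb* 0.60, 0.48 and 0.76. Without the 3 livers these were 0.73, 0.58 and 0.65 for *Spp1* and 0.43, 0.26 and 0.66 for *Gpnmb*, so *Spp1* had the higher values for *Epcam* and *Krt19* but not for *Sox9*. These are descriptions of livers that differ in diet stage, sex and vector, with no test.

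Among 11982 genes with a mean of at least 1 CPM, the 3 genes with the order most like that of each member were listed by Spearman's rho over the 27 livers. For *Gpnmb* they were *Ahnak* (0.89), *Col6a3* (0.86) and *Ctsk* (0.84), a scaffold protein, a collagen chain and a lysosomal protease. For *Mmp12* they were *Slamf7* (0.90), *Cx3cr1* (0.90) and *Ahnak* (0.86), the second being the fractalkine receptor of monocytes. For *Trem2* they were *Marveld3* (0.92), *Adgrf1* (0.91) and *Adam8* (0.91), and for *Itgax* *Glipr1* (0.93), *Mrc2* (0.93) and *Sema4d* (0.92). For *Spp1* they were *Ehf* (0.89), *Mmp7* (0.87) and *Scara3* (0.86), of which *Ehf* encodes an epithelial transcription factor and *Mmp7* a metalloproteinase made by ductular epithelium. For *Cd63* they were *Cavin1* (0.85), *Col1a2* (0.84) and *Sparc* (0.84), of which the last 2 encode matrix proteins made by stellate cells. For *Lgals3* they were *Bcl2a1b* (0.86), *S100a6* (0.85) and *Capg* (0.84), for *Cd9* *Vill* (0.83), *Dhrs9* (0.81) and *Pbxip1* (0.80), and for *Fabp5* *Fam53c* (0.76), *Kctd11* (0.75) and *Zfp553* (0.74). No gene was among the nearest of more than 2 members.

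The comparison of Res with WDA asked how the 9 genes stood after 4 weeks without alcohol, and in KO females 3 of 9 passed the test. The receptors *Trem2* and *Itgax* were higher in Res and the tetraspanin *Cd63* was lower. *Trem2* was at 0.232, 0.658 and 0.233 CPM in KO WDA females and at 1.12, 1.57 and 1.46 CPM in KO Res females. *Itgax* was at 1.62, 1.37 and 0.933 CPM against 9.80, 4.24 and 2.30 CPM. *Cd63* was at 9.21, 11.0 and 12.0 CPM against 5.40, 7.43 and 5.23 CPM. The groups did not overlap for any of the 3 genes, which adds no support because the genes were picked by passing the test. The highest *Itgax* value was that of KO Res female mouse 2. On the log2 scale *Trem2* differed by 1.85 ± 0.42 (SE; adjusted p = 0.0167, quasi-likelihood test of edgeR, Benjamini-Hochberg adjusted over all genes tested). By the same edgeR test *Itgax* differed by 2.04 ± 0.49 (adjusted p = 0.0199) and *Cd63* by -0.83 ± 0.19 (adjusted p = 0.0146). Among all genes tested 20.4% passed, so 3 of 9 is read against that share.

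*Gpnmb* missed the threshold in KO females, with a log2 difference of 1.14 ± 0.38 (edgeR, adjusted p = 0.0592), although its groups did not overlap. *Mmp12* differed by 0.97 ± 0.43 and *Lgals3* by 0.46 ± 0.18 (edgeR, adjusted p = 0.140 and 0.109), and *Spp1* by 0.27 ± 0.17 (adjusted p = 0.280). *Cd9* differed by -0.42 ± 0.21 and *Fabp5* by -0.51 ± 0.29 (edgeR, adjusted p = 0.181 and 0.240). The median over the 9 genes was 0.45, against 0.01 over all genes tested. The receptors *Trem2* and *Itgax* and the tetraspanin *Cd63* thus had the largest differences relative to their errors, and *Trem2* rested on 4 to 12 reads in each KO WDA female. Without the library labelled KO WDA female mouse 1, *Trem2*, *Itgax* and *Cd63* passed again, in a fit whose share over all genes is not given here. Without KO WDA female mouse 3, 2 of 9 passed, *Cd63* and *Trem2* (17.4% of all genes). Without KO Res female mouse 2, 4 passed, *Cd9*, *Gpnmb*, *Itgax* and *Trem2* (10.6%). Without mouse 3 of KO Res females 2 passed, *Cd63* and *Itgax* (12.9%), and without mouse 4, 2 passed, *Itgax* and *Mmp12* (8.14%). None of *Trem2*, *Itgax* and *Cd63* was thus called in every fit without 1 mouse. With a spread shared by all 9 groups 0 passed. With the mouse number as a block, 4 members passed (13.7% of all genes), *Gpnmb* and *Mmp12* joining *Cd63* and *Itgax* while *Trem2* did not pass. The numbers name different animals in the 2 experiments, and only numbers 2 and 3 occur in both groups, so these calls add no support.

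In WT males 1 of the 9 genes passed, *Itgax*. It was at 3.35, 0.908 and 0.752 CPM in WT WDA males and at 6.04, 5.04 and 8.21 CPM in WT Res males, without overlap. It differed by 1.96 ± 0.51 on the log2 scale (edgeR, adjusted p = 0.0451), where 11% of all genes passed. *Mmp12* was at 6.32, 1.69 and 0.627 CPM against 30.2, 9.72 and 11.4 CPM, also without overlap, and *Lgals3* at 11.6, 6.47 and 8.09 CPM against 19.9, 14.2 and 13.1 CPM. *Mmp12* differed by 2.57 ± 0.71 and *Lgals3* by 0.87 ± 0.24 (edgeR, adjusted p = 0.0543 and 0.0523), both short of the threshold. *Gpnmb* and *Trem2* overlapped, because WT WDA male mouse 19 was at 15.1 CPM of *Gpnmb* and 2.13 CPM of *Trem2* against lowest Res values of 14.2 and 1.90 CPM. Their differences were 2.65 ± 0.82 and 1.88 ± 0.61 (edgeR, adjusted p = 0.0725 and 0.0822). *Spp1* differed by 0.81 ± 0.80 and *Cd9* by 0.51 ± 0.27 (edgeR, adjusted p = 0.518 and 0.240). All 9 differences were above 0, with a median of 0.87 against 0.02 over all genes.

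Which mice entered set the call in WT males. Without WT WDA male mouse 19, 5 members passed, *Gpnmb*, *Itgax*, *Lgals3*, *Mmp12* and *Trem2* (2.69% of all genes), and without WT Res male mouse 9, 3 passed (13.5%). Without WDA male 20, WDA male 21, Res male 7 or Res male 8, 0 members passed (1.6%, 0.835%, 8.85% and 3.97% of all genes). Across these 6 fits the number of members with an unadjusted p under 0.05 was 4 to 6. Counts at an unadjusted p are given here and below without a share over all genes, and only describe the members. The DESeq2 Wald test called 3 members, *Itgax*, *Lgals3* and *Trem2*. Its share over all genes is not given here, so these 3 calls are not read against one.

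**Figure D5:**
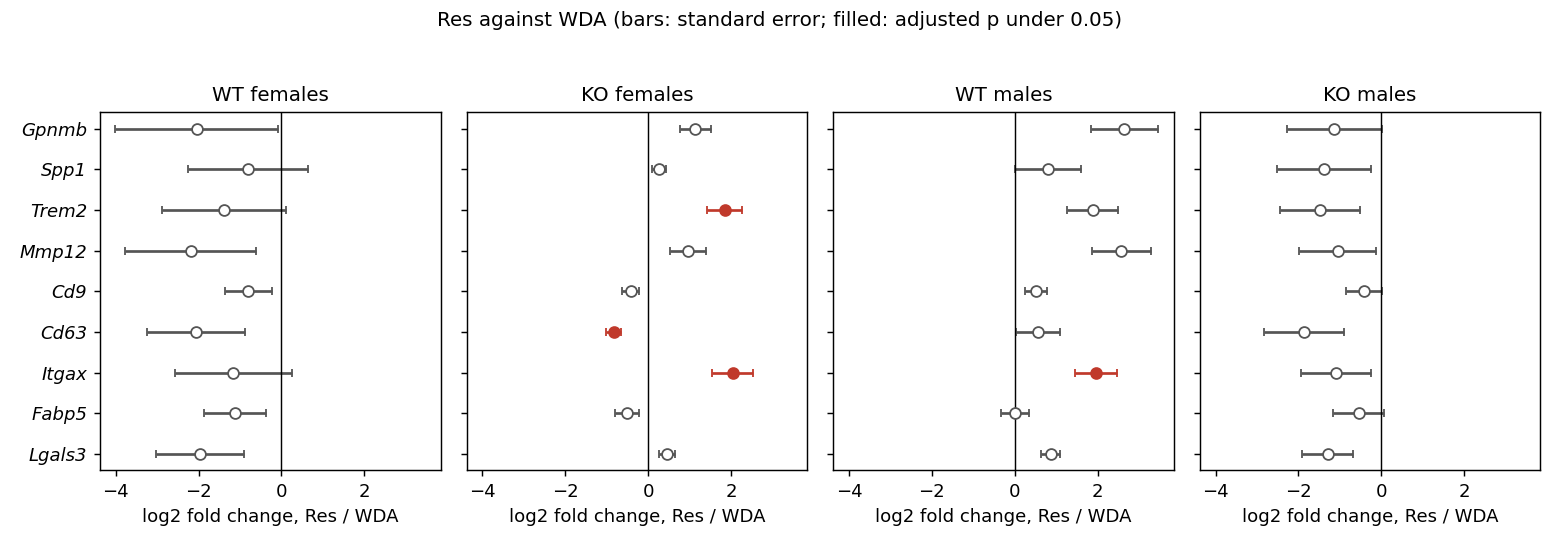
Log2 fold change of Res over WDA for the 9 genes in WT females, KO females, WT males and KO males, with bars for the standard error and filled points for an adjusted p under 0.05. Filled points are *Trem2*, *Cd63* and *Itgax* in KO females and *Itgax* in WT males, and the bars are widest in the groups that hold mouse 7, 13 or 17.

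In WT females and in KO males no member passed in the same comparison (0% of all genes in each), with 0 members at an unadjusted p under 0.05 and 0 by DESeq2. *Gpnmb* differed by -2.04 ± 1.97 in WT females (edgeR, adjusted p = 0.697) and by -1.13 ± 1.14 in KO males (adjusted p = 0.854), and *Fabp5* in WT females by -1.12 ± 0.75 (adjusted p = 0.562). *Lgals3* in KO males differed by -1.295 ± 0.61 (edgeR, adjusted p = 0.773). Both directions turned with the high livers. The median over the 9 genes in WT females was -1.38, but 1.58 without WT WDA female mouse 7, -2.52 without WT Res female mouse 13 and -0.15 without both. In KO males it was -1.13, but 0.39 without KO WDA male mouse 17.

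Genes that act with the members moved in both directions in KO females. Counting only genes that passed the edgeR test, of 17 receptor partners and downstream genes, 2 were higher and 3 lower in Res, with a median of 0.02 (0.01 over all genes). *Syk*, the kinase below the TREM2 adaptor, differed by 0.996 and *Itgb2*, the chain that pairs with CD11c, by 0.97. The 3 lower genes were all tetraspanins related to *Cd9* and *Cd63*, *Cd82* at -0.76, *Cd81* at -0.73 and *Cd151* at -0.60, the last 2 being named after their values were seen. Of 20 genes of lysosome and lipid handling, 8 were lower and 0 higher, with a median of -0.28, among them *Lgals1* (galectin-1) at -1.07, *Lipa* (lysosomal acid lipase) at -1.04 and *Lpl* (lipoprotein lipase) at -0.93. Of 8 metalloproteinases and inhibitors, 3 were higher and 0 lower, with a median of 0.20. They were *Mmp8* at 3.30, which is also counted among the neutrophil genes, and the inhibitors *Timp3* at 1.03 and *Timp2* at 0.43.

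Between 1 of 8 and 4 of 7 genes of each immune cell list passed in KO females, all of them higher in Res. Of 14 pan-macrophage and recruited monocyte genes, 5 were higher and 0 lower (median 0.49), with the chemokine *Ccl4* at 2.84 and *Ms4a7* at 1.31 among them. Of 10 Kupffer cell genes, 3 were higher, *Marco* at 2.07, *C6* at 0.95 and *Vsig4* at 0.79 (median 0.63), and of 7 dendritic cell genes 4 were higher (median 0.72). Of 6 neutrophil genes 3 were higher (median 2.06) and of 8 lymphocyte genes 1. Of 6 ductular genes 3 were lower, with *Krt23* at -3.08 (median 0.02), and of 13 stellate cell genes 1 was higher and 1 lower (median -0.08). Of 8 hepatocyte genes 2 were higher and 1 lower, of 9 female-biased genes 5 were higher and 1 lower, and of 6 male-biased genes 1 was higher. These counts are read against the 20.4% of all genes that passed, and their part in the members' differences was not tested.

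In WT males the tetraspanins *Cd81* (-0.65) and *Cd82* (-0.60) were again among 3 lower genes of the 17 partners, of which 1, *Itgb3* at 1.07, was higher. Of 20 lysosome and lipid genes 1 was higher and 3 lower, with *Apoe* at -0.64 and *Lipa* at -0.51. Of 13 pan-macrophage genes 3 were higher, *Ccl4* at 2.59, *Ccr2* at 1.397 and the lysozyme gene *Lyz2* at 0.95, and of 8 dendritic cell genes 5 were higher. Of the 10 Kupffer cell, 14 stellate cell, 8 hepatocyte and 8 metalloproteinase genes 0 passed. Of 4 neutrophil genes 3 were higher, of 9 lymphocyte genes 3 were higher and 1 lower, and of 7 ductular genes 1 was higher, *Sox9* at 1.95. Of 4 female-biased genes 2 were higher and of 10 male-biased genes 2 were lower. The share of all genes that passed was 11%.

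The comparison of KO with WT asked what deletion with CMV-Cre changed within a sex and stage. No member passed in any of the 4 comparisons (0% of all genes in each). In WDA females *Gpnmb* differed by -6.48 ± 2.01, *Spp1* by -3.38 ± 1.304 and *Cd9* by -0.92 ± 0.43 (edgeR, adjusted p = 0.978 for each), and 8 of 9 members had an unadjusted p under 0.05. Those sizes rest on WT mouse 7: without it the median over the 9 genes was -0.23 in place of -3.38, *Gpnmb* differed by -1.34 ± 0.30 (edgeR, adjusted p = 0.641) and *Spp1* by -0.02 ± 0.19. The 2 remaining WT females, at 2.32 and 2.73 CPM of *Gpnmb*, were still above the 3 KO females, at 0.768 to 1.16 CPM. Without the library labelled KO WDA female mouse 1 the median was -3.44, and 0 passed. The number of members at an unadjusted p under 0.05 was 9 without WT mouse 5 or 6 and 1 without WT mouse 7. It was 1, 2 and 0 without KO mouse 1, 2 and 3.

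In WDA males the direction was the opposite. *Mmp12* differed by 3.39 ± 1.17, *Gpnmb* by 3.33 ± 1.47 and *Cd9* by 0.83 ± 0.48 (edgeR, adjusted p = 0.588 to 0.598), 5 of 9 members having an unadjusted p under 0.05. *Mmp12* was at 6.32, 1.69 and 0.627 CPM in WT and at 5.52, 72.3 and 11.2 CPM in KO, so that the groups overlapped. Without KO mouse 17 the median over the 9 genes was 0.84 in place of 2.62, and 0 passed.

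In Res females *Gpnmb* differed by -3.30 ± 1.24 and *Spp1* by -2.31 ± 0.77 (edgeR, adjusted p = 0.210 and 0.174), 2 of 9 members having an unadjusted p under 0.05. Without WT mouse 13 the median was 0.31 in place of -1.15, *Gpnmb* differed by -0.17 ± 0.42 and *Spp1* by -0.62 ± 0.18 (edgeR, adjusted p = 0.849 and 0.173). In Res males, where no liver stood as far apart, the median was -0.08, with *Gpnmb* at -0.48 ± 0.55 and *Fabp5* at 0.56 ± 0.35 (edgeR, adjusted p = 0.9998 for both) and 0 members with an unadjusted p under 0.05. Without KO Res male mouse 5, in which female-biased transcripts were high, the median was -0.38, and it was above 0 without WT Res male mouse 9 (0.26) or KO Res male mouse 6 (0.23). DESeq2 called 0 members in each of the 4 comparisons.

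In both sexes together, with sex as a covariate, KO against WT gave a median of -0.28 in WDA and -0.56 in Res, or 0.42 and 0.07 without the 3 high livers, with no member called, none at an unadjusted p under 0.05 and 0 by DESeq2 (0% of all genes in each). The difference of the KO effect between sexes in Res and between stages in females and in males was tested as an interaction. No member passed in any of the 3 tests (0% of all genes in each), and the smallest edgeR adjusted p was 0.486, 0.782 and 0.932. The number of members at an unadjusted p under 0.05 was 0, 0 and 5, and DESeq2 called 0. The medians of the interaction, 1.21, 2.43 and -2.39 on the log2 scale, were -0.29, 0.59 and -1.18 without the 3 livers.

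Res against WDA in both sexes called 0 of 9 members in WT (10.3% of all genes) and 0 of 9 in KO (9.14%), with 0 and 1 members at an unadjusted p under 0.05 and 0 by DESeq2 in both. *Cd63* in KO differed by -1.39 ± 0.56 (edgeR, adjusted p = 0.137). The median over the 9 genes was -0.02 in WT, 1.501 without mouse 7 alone and 0.83 without mice 7 and 13, and in KO it was -0.43, or 0.31 without mouse 17. Without mouse 7 alone 4 members passed in WT, *Gpnmb*, *Itgax*, *Mmp12* and *Trem2* (22.2% of all genes). With all the high livers left out, a choice made after seeing the data, *Itgax* passed in both. It differed by 1.67 ± 0.40 in WT (edgeR, adjusted p = 0.0161; 20% of all genes passed) and by 1.32 ± 0.43 in KO (adjusted p = 0.0464; 18.5% passed). The 2 comparisons share no livers, but each shares them with the single-sex comparisons above.

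HepKO females were compared with WT and with KO females on WDA to see what deletion directed to hepatocytes changed. Against WT no member passed (0% of all genes), 5 of 9 having an unadjusted p under 0.05. *Gpnmb* differed by -5.41 ± 1.92 (edgeR, adjusted p = 0.447) and *Fabp5* by -1.93 ± 0.59 (adjusted p = 0.378), and all 9 differences were below 0. *Fabp5* was at 4.38, 4.35 and 4.30 CPM in HepKO, at 8.26, 7.69 and 33.0 CPM in WT and at 5.91, 5.32 and 8.11 CPM in KO, so that every HepKO liver was below every WT and every KO liver. Without WT mouse 7 the median over the 9 genes was -0.19 in place of -2.96, and *Fabp5* alone passed, at -0.87 ± 0.16 (edgeR, adjusted p = 0.0244), where 2.8% of all genes passed. DESeq2 called *Fabp5* with all 6 livers, at an adjusted p of 0.0413 (Wald test). The number of genes it called there is given in the last section, and this call is not read against a share.

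Against KO no member passed (0.0162% of all genes), 3 of 9 having an unadjusted p under 0.05 and 0 being called by DESeq2. *Gpnmb* differed by 1.05 ± 0.29, *Spp1* by 0.40 ± 0.14 and *Fabp5* by -0.57 ± 0.19 (edgeR, adjusted p = 0.648, 0.787 and 0.755). The HepKO livers, at 1.52 to 2.53 CPM of *Gpnmb*, were all above the KO livers, at 0.768 to 1.16 CPM. The median over the 9 genes was 0.18, or 0.25 without the library labelled KO WDA female mouse 1, and none of these 6 livers stood apart for the members.

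Males and females were compared within each stage over WT and KO, with the vector as a covariate. No member passed in WDA (2.85% of all genes) or in Res (3.38%), with 0 and 2 members at an unadjusted p under 0.05 and 0 by DESeq2 in both. In Res all 9 log2 differences of males over females were above 0, *Gpnmb* by 2.08 ± 0.85 and *Mmp12* by 1.503 ± 0.59 (edgeR, adjusted p = 0.211 and 0.197). Without WT Res female mouse 13, 3 members passed, *Gpnmb* at 3.79 ± 0.46 (edgeR, adjusted p = 4.77e-04), *Mmp12* at 2.37 ± 0.48 and *Trem2* at 1.56 ± 0.32 (adjusted p = 0.0136 for both), where 5.05% of all genes passed. Mouse 13 was singled out by its high level of these same genes, while high Res males stayed in, so that fit is no test of a sex difference. Without KO Res male mouse 5 and with mouse 13 in the fit, the median was 0.41 in place of 0.53, and 0 passed. In WDA the median was 0.09, and without mice 7 and 17 it was 1.15, with *Cd9* lower in males by -0.39 ± 0.10 and *Spp1* higher by 1.54 ± 0.42 (edgeR, adjusted p = 0.0261 and 0.0344; 11.2% of all genes passed).

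Outside mice 7, 17 and 13, *Mmp12* and *Trem2* still varied widely, from 0.627 to 30.2 CPM and from 0.168 to 5.46 CPM. Narrower ranges outside the high livers were those of *Lgals3*, *Cd9* and *Cd63*. *Lgals3* ran from 6.10 to 19.9 CPM outside mice 7 and 17, where it was at 104.5 and 61.9 CPM. *Cd9* was at 86.2 and 67.3 CPM in those mice, at 43.2 CPM in WT Res female mouse 13 and at 42.6 CPM in WT Res male mouse 9, and between 13.5 and 33.6 CPM in the other 23. *Cd63* was at 141.3 and 113.5 CPM in mice 7 and 17 and between 4.56 and 29.9 CPM in the others. *Itgax* was at 37.8 and 31.7 CPM in them, and KO Res female mouse 2, with 9.80 CPM, was above all other females but mice 7 and 13. In that liver the other members were not raised alike, *Trem2* being at 1.12 CPM and *Gpnmb* at 1.41 CPM, so *Itgax* was its only member above 2 times the median.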

How the data were processed

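RNA from whole liver of 27 mice in 9 groups was sequenced on a BGI platform. The submitters' notes name HISAT, Bowtie2 and GRCm38.p6, while the versions and the counting tool are not given in the sources used here. The deposited expected counts, which the authors give per gene and library as estimated reads without normalization (7.34% to 8.09% not whole), were rounded. The authors also deposited FPKM values, scaled by length and library total, which served only for levels between genes. A gene missing from 1 of the 4 tables was given 0. Fold changes and p-values of the authors' own comparisons were not used. Each library was put in a group by its treatment and sex labels, and no 2 libraries held identical counts.

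Tests were run with edgeR 4.0.16 and limma 3.58.1 under R 4.3.3: filterByExpr (minimum count 10), TMM scaling, glmQLFit and glmQLFTest, Benjamini-Hochberg adjustment over all genes tested, threshold 0.05. Only the groups compared entered a fit. An exact two-sided permutation test over 3 and 3 mice has a smallest p of 0.1, so none is given. Alternatives were the DESeq2 1.42.0 Wald test, RLE scaling, no filter, a spread shared by all 9 groups, a replicate block and leaving out each mouse. Leaving out the 3 highest livers was added after seeing the data. The fits were tested on simulated data. Tables and figures used Python with numpy 2.4.6, pandas 2.3.3, scipy 1.17.1 and matplotlib 3.10.9.

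The members and the gene lists were chosen with earlier results of these data known. All 9 members were tested in every comparison, and where a few are named the others stand in the count and the median; the text also names the 3 genes of highest Spearman correlation over libraries (mean CPM of at least 1), and from each list up to 3 called genes with the largest fold change, apart from 1 gene that is not reported here. Precision rests on 3 mice per group and, for low genes, on counting error. Overlap between groups was not counted over all genes, so a lack of overlap is given as a description only.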

Additional observations from a re-analysis of the deposited data

How the results depend on the processing

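A chosen part of the member fold changes was followed under the alternatives, 38 with 412 values. Of these values 374 kept their direction and side of the threshold, 14 lost the call, 21 gained one and 3 turned direction. The 3 of the 38 that turned did so in fits without 1 mouse: *Gpnmb* in Res against WDA, WT females (-5.16 to 3.06), *Spp1* in WT males (-0.71 to 1.67) and *Gpnmb* in KO males (-1.68 to 0.96). Fold changes outside the 38 also turned. In KO against WT, Res females, 0 members were above 0, but 6 were without WT Res female mouse 13. In KO against WT, WDA both sexes, 1 member was above 0, but 9 were without WT WDA female mouse 7.

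The DESeq2 Wald test called these numbers of genes: 8 (KO against WT, WDA females), 17 (WDA males), 636 (Res females), 7 (Res males), 4 (WDA, both sexes), 6 (Res, both sexes), 230 (HepKO against WT, with 1 member), 38 (HepKO against KO), 404 (Res against WDA, WT females), 79 (KO males), 2110 (WT, both sexes), 716 (males against females, WDA) and 855 (Res). In the interactions it called 85 (sex), 1 (stage, females) and 1 (stage, males), and 3 members in Res against WDA, WT males. Without a filter, 1 gene was called in KO against WT, Res females, 7 in HepKO against WT, 5 in HepKO against KO and 2 in Res against WDA, KO males, and 3 members in WT males. For WT males no total of genes is given in either setting, so these member counts are not read against a share.

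With the spread shared by all groups, 670 genes were called in KO against WT, Res females, 26 in both sexes, 49 in HepKO against WT and 0 in HepKO against KO. In Res against WDA 840 were called in WT females, 308 in WT males (0 members), 1558 in KO females (0 members), 102 in KO males, 2056 in WT and 2052 in KO of both sexes. It called 646 and 899 between sexes in WDA and Res, and 9 (sex) and 1 (stage, females) in the interactions. Without the 3 highest livers, 15 genes were called in Res against WDA, WT females, 2585 in WT (1 member) and 2425 in KO (1 member) of both sexes, and 1426 (2 members) and 670 (3 members) between sexes in WDA and Res.

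Without 1 mouse, the genes called ranged from 0 to 852 in KO against WT, Res females, 0 to 349 in HepKO against WT (members 0 to 1) and 1 to 5 in HepKO against KO. In Res against WDA they ranged from 0 to 15 in WT females, 106 to 1685 in WT males (members 0 to 5), 1026 to 2292 in KO females, 0 to 10 in KO males, 696 to 2949 in WT (members 0 to 4) and 431 to 2425 in KO (members 0 to 1) of both sexes. Between sexes they ranged from 184 to 810 in WDA and from 264 to 670 in Res (members 0 to 3). Fewer mice enter each such fit; otherwise the cause of these differences was not tested.

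With the replicate block, Res against WDA in KO females called 1707 genes in place of 2550 and 4 members in place of 3. Mouse numbers of the 2 experiments name different animals, so the numbers do not pair mice, and no other groups compared share 2 numbers. The low counts of *Trem2* and *Itgax* limit what can be detected.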
